A study of Mus musculus with 17 samples.

Results

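The genes described here are 10 genes of the major histocompatibility complex (MHC) class II antigen presentation machinery in the perigonadal white fat (pWAT) of mice, a visceral depot that lies next to the gonads. They were taken by name and matched through their Ensembl identifiers, and all 10 were found among the 55401 genes in the files. They are the transactivator *Ciita*, the invariant chain *Cd74*, the chains *H2-Aa*, *H2-Ab1* and *H2-Eb1*, the peptide exchange factors *H2-DMa*, *H2-DMb1* and *H2-DMb2*, and the modulators *H2-Oa* and *H2-Ob*. The rule names genes by function and uses no threshold on a measured value, but it was set with earlier results of these data known. The mice were C57BL/6J littermates on standard chow, either wild type (WT) or homozygous for a deletion of all exons of the long noncoding RNA gene *U90926* (U9-KO). The paper describes no diet or drug that differed between these groups. Mice of the cohort went through a phenotyping screen with food withdrawal, blood sampling and an intraperitoneal glucose tolerance test. There were 5 WT females, 5 U9-KO females, 3 WT males and 4 U9-KO males, with 1 bulk RNA-seq library of whole pWAT per mouse. The methods place the collection at 16 weeks of age and the phenotyping scheme runs to 19 weeks. The deletion is present in every cell of a U9-KO mouse from conception and is not limited to fat.

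MHC class II molecules are pairs of an alpha and a beta chain that carry peptides from ingested proteins to the cell surface, where CD4+ T cells read them. They are made mainly by professional antigen-presenting cells, namely B cells, dendritic cells and macrophages, and not by most other cells of a tissue. In the endoplasmic reticulum the invariant chain CD74 fills the groove of a new class II pair, and in the endosome H2-DM removes the remaining fragment of CD74 so that a peptide can bind. H2-O binds H2-DM and restrains it, and is found above all in B cells. Ciita does not bind DNA by itself but is recruited to a protein complex on conserved elements of class II promoters, and its presence decides whether the genes are transcribed. Mice of the C57BL/6 background lack a functional alpha chain for the H2-Eb1 product, and the locus listed as *H2-Ea-ps* was at 0 in all 17 libraries, while *H2-Eb1* itself was abundant.

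Of the 10 genes, 8 lie together on chromosome 17 of GRCm38, from the start of *H2-Oa* at 34092340 to the end of *H2-Eb1* at 34316674. The promoter table of RefSeq (GRCm38.p6), which holds 250 bases before and 50 bases after each start, had entries for 7 of the 10 genes. The letters TGATTGG, the core of the Y box at which NF-Y binds class II promoters, were found on the gene's own strand in 6 of these 7 genes, and on either strand in 7.82% of all 32851 promoters in the table. The letters AACNNNTGA, a loose spelling from the X box in which N is any base, were found in 4 of the 7 genes and in 11.9% of all promoters. This spelling was chosen with the class II promoters in view. Both strands were searched, and the matches shown did not overlap each other. The stretches from base -130 to base -31 before the start are shown for the 6 genes with the Y box core because they let the shared layout be seen, with the letters found in capitals. They are *H2-Eb1* (chr17:34305737-34305836, plus strand), *H2-Ob* (chr17:34238775-34238874, plus strand), *H2-DMb1* (chr17:34153061-34153160, plus strand), *H2-DMb2* (chr17:34145119-34145218, plus strand), *H2-Aa* (chr17:34287854-34287953, minus strand) and *H2-Oa* (chr17:34092249-34092348, plus strand).
H2-Eb1: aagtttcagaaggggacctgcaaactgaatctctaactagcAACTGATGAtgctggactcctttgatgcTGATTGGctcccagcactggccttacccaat
H2-Ob: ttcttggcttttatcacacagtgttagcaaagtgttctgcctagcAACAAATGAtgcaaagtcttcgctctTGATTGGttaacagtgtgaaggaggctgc
H2-DMb1: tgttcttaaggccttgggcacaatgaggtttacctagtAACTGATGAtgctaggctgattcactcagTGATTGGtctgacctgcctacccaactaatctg
H2-DMb2: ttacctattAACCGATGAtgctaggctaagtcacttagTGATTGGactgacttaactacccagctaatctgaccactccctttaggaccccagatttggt
H2-Aa: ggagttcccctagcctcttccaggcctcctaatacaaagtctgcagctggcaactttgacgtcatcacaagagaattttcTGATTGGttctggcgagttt
H2-Oa: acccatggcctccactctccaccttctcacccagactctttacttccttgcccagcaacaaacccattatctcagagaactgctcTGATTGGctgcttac
The Y box core began 61 bases before the start in *H2-Eb1*, 59 in *H2-Ob*, 63 in *H2-DMb1*, 92 in *H2-DMb2*, 50 in *H2-Aa* and 45 in *H2-Oa*. In *H2-Eb1*, *H2-Ob*, *H2-DMb1* and *H2-DMb2* the X box letters stood upstream of it. A match describes letters and not binding, and the absence of a match in *H2-DMa* concerns these 2 spellings in its listed windows only.

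The authors scaled the reads counted for each gene by the size factor of its library and then rounded them, and the results are called normalized counts here. They summed to between 20243688 and 28620744 per library. From the whole numbers that never occur, between 19700000 and 27600000 counted reads per library were estimated. Females and males appear to have been scaled separately, so levels of the sexes are set side by side and not tested against each other. The adipocyte markers summed to at least 154955 in every library. *U90926* itself was at or near 0 in every library, with a single count in 1 female and 1 male of the WT groups, so it could not serve to check the genotype labels. Markers of the ovary summed to 139969 in U9-KO female 1 and 124755 in WT female 4, to between 4047 and 37953 in the other females, and to at most 425 in males. The female genotype differences and slopes are therefore also given without these 2 libraries.

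**Figure D1:**
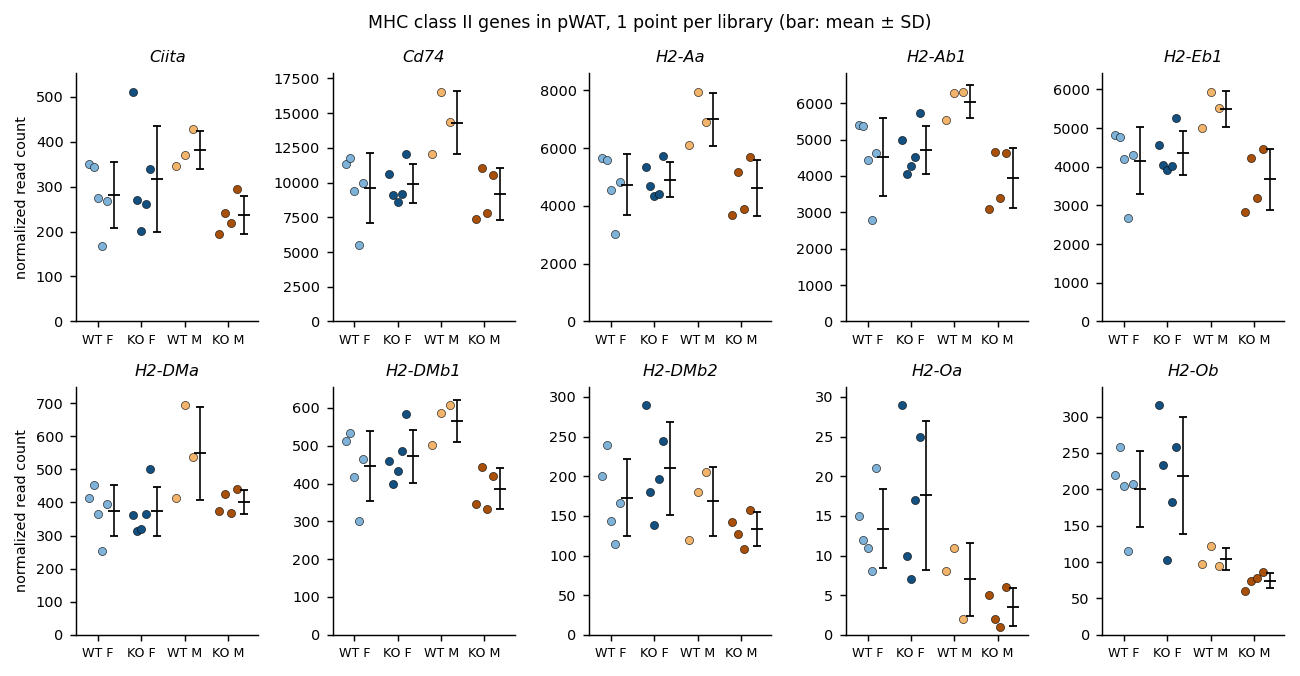
Normalized read count of each of the 10 genes (vertical axis from 0) in WT females (WT F), U9-KO females (KO F), WT males (WT M) and U9-KO males (KO M), with 1 point per library and a bar for the mean ± SD. For *Ciita*, *Cd74*, *H2-Aa*, *H2-Ab1*, *H2-Eb1*, *H2-DMb1* and *H2-Ob* the U9-KO male points all lie below the WT male points, whereas the female groups overlap for all 10 genes.

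Levels of different genes were compared per kilobase of merged annotated exons. *Cd74* was the highest, with a median of 5763 normalized counts per kilobase over the 10 female libraries (3280 to 7162) and 6571 over the 7 male libraries (4392 to 9856). The chain genes *H2-Eb1*, *H2-Ab1* and *H2-Aa* followed, with female medians of 2185, 1781 and 1255. Their male medians were 2295, 1813 and 1500. This order held in all 10 female and all 7 male libraries. It depends on the length used: per kilobase of the longest annotated transcript *H2-Ab1* stood above *H2-Eb1*, at 3774 against 2545 in females. The H2-DM genes were lower, at 275 for *H2-DMb1*, 108 for *H2-DMb2* and 106 for *H2-DMa* in females and 264, 81.3 and 123 in males. The last 2 could not be ordered in females, where *H2-DMb2* was above *H2-DMa* in 4 of 10 libraries, while *H2-DMa* was above *H2-DMb2* in 7 of 7 male libraries. *Ciita* and *H2-Ob* were lower still. In females *H2-Ob* had a median of 39.6 and *Ciita* 28.6, with *H2-Ob* above *Ciita* in 9 of 10 libraries, and in males the order was turned, with 30.8 for *Ciita* and 15.99 for *H2-Ob* in 7 of 7 libraries. *H2-Oa* was the lowest, at 9.59 in females and 3.55 in males, and had only 1 to 29 normalized counts in a library, so its values carry the most counting error.

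*Ciita* lies on chromosome 16 (chr16:10480059-10528418, plus strand) and *Cd74* on chromosome 18 (chr18:60803848-60812652, plus strand). Some of the counts could be shared with other annotated genes. *H2-DMb1* and *H2-DMb2* are near-identical copies in part, and 22.7% of the 50-base words in *H2-DMb1* transcripts also occur in those of *H2-DMb2*, so that the split of reads between them is uncertain. *Ciita* overlaps *Dexi*, *H2-DMa* overlaps *Brd2*, *H2-Oa* overlaps *BC051537* and *H2-Eb1* overlaps *Gm20513*, each on the opposite strand. On the same strand *H2-DMa* overlaps *CR974462.3* over 591 bases and *Cd74* overlaps *Mir5107* over 88 bases. Whether the counting used strand is not given in the sources used here, and reads that touched more than 1 gene were not counted.

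In females no difference between U9-KO and WT larger than the spread between mice was detected for any of the 10 genes. *Ciita* had 350, 343, 274, 168 and 268 normalized counts in WT females and 511, 271, 202, 262 and 338 in U9-KO females. The groups overlapped, with the highest value in U9-KO female 1 and the lowest in WT female 4, the 2 libraries with the most ovary marker counts. *Cd74* had 11368, 11791, 9399, 5507 and 9952 in WT females against 10612, 9094, 8632, 9142 and 12025 in U9-KO females. *H2-Aa* had 5674, 5585, 4552, 3033 and 4846 in WT females against 5353, 4688, 4361, 4419 and 5720 in U9-KO females. For both, WT female 4 was far below the other 9 females, which overlapped across the genotypes.

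The remaining genes also overlapped in females. *H2-Ab1* ran from 2784 to 5386 in WT and from 4065 to 5726 in U9-KO females, and *H2-Eb1* from 2682 to 4825 and from 3913 to 5266. *H2-DMa* ran from 253 to 454 and from 315 to 501, *H2-DMb1* from 301 to 534 and from 398 to 584, and *H2-DMb2* from 114 to 239 and from 139 to 290. *H2-Oa* ran from 8 to 21 in WT and from 7 to 29 in U9-KO females. WT female 4 was the lowest WT female for each of these genes.

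The log2 differences of U9-KO from WT females, on the log2(normalized count + 1) scale, were 0.15 ± 0.26 (SE) for *Ciita*, 0.08 ± 0.19 for *Cd74* and 0.08 ± 0.16 for *H2-Aa*. Over the 10 genes they ran from -0.0048 for *H2-DMa* to 0.28 for *H2-DMb2*, with a median of 0.09 against 0.0 over all genes tested. With limma and Benjamini-Hochberg adjustment over 24825 genes, 0 of the 10 genes passed the threshold of an adjusted p under 0.05, as did 0 genes in all (0%). The paper's DESeq2 test did call genes at this threshold in each sex, so the 0% describes the limma fit only. At an unadjusted p under 0.05 there were 0 of the 10, against 2.23% of all genes. The fit on approximate reads with voom weights called 0 of the 10 as well. Two-sided exact permutation tests of single genes gave p between 0.286 and 0.976, with 0.0079 the smallest that 5 against 5 allows. The intervals were wide: for *Ciita* the 95% interval of the log2 difference ran from -0.42 to 0.71. Without U9-KO female 1 and WT female 4 the direction turned for 8 of the 10 genes, the median was -0.11 and 0 genes passed.

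In males all 10 genes had lower means in U9-KO than in WT pWAT, but none passed the threshold once adjusted over all genes. *Ciita*, the transactivator, had 346, 371 and 427 normalized counts in the WT males and 195, 242, 218 and 294 in the U9-KO males. The groups did not overlap, the highest U9-KO male lying below the lowest WT male. *Cd74*, the invariant chain, had 12056, 16549 and 14350 in WT males and 7374, 11032, 7825 and 10516 in U9-KO males, again without overlap.

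The chain genes *H2-Aa*, *H2-Ab1* and *H2-Eb1* showed the same arrangement. *H2-Aa* had 6122, 7960 and 6907 in WT males and 3700, 5165, 3888 and 5698 in U9-KO males. *H2-Ab1* had 5524, 6284 and 6317 in WT males and 3101, 4655, 3394 and 4620 in U9-KO males. *H2-Eb1* had 5005, 5941 and 5514 in WT males and 2832, 4217, 3186 and 4461 in U9-KO males. For each of these chains the U9-KO males fell into a lower pair, mice 1 and 3, and a higher pair, mice 2 and 4, and both pairs stayed below every WT male.

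Among the genes of the H2-DM exchange factor, *H2-DMb1* had 502, 586 and 608 in WT males and 347, 444, 333 and 420 in U9-KO males, with no overlap. *H2-DMa* had 414, 695 and 539 in WT males and 374, 425, 369 and 442 in U9-KO males, and *H2-DMb2* had 120, 180 and 205 against 142, 127, 108 and 158. For these last genes WT male 1 lay within the range of the U9-KO males. Of the H2-O genes, *H2-Ob* had 97, 122 and 94 in WT males and 60, 74, 78 and 86 in U9-KO males, with no overlap. *H2-Oa* had 8, 11 and 2 against 5, 2, 1 and 6, which is too few to separate the groups.

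Expressed as log2 differences with SE, the U9-KO males stood at -0.69 ± 0.15 for *Ciita*, -0.65 ± 0.16 for *Cd74*, -0.62 ± 0.16 for *H2-Aa*, -0.64 ± 0.15 for *H2-Ab1* and -0.60 ± 0.15 for *H2-Eb1*. The differences were -0.42 ± 0.16 for *H2-DMa*, -0.56 ± 0.13 for *H2-DMb1*, -0.31 ± 0.20 for *H2-DMb2*, -0.79 ± 0.65 for *H2-Oa* and -0.48 ± 0.18 for *H2-Ob*. The median over the 10 genes was -0.61, against 0.0 over all genes tested. By limma 0 of the 10 genes passed the adjusted threshold, with adjusted p from 0.612 to 0.769 over 21930 genes. In all, 0 genes (0%) passed by this fit, unlike in the paper's DESeq2 test of males. The fit on approximate reads with voom weights also called 0 of the 10. At an unadjusted p under 0.05, 8 of the 10 genes were lower in U9-KO males, where 4.09% of all genes tested were, and 7 of the 10 were lower without overlap, where 3.8% of all genes were. The exact permutation test gave p = 0.0571 for each of those 7 genes, the smallest that 3 against 4 mice allows, so single genes could not reach 0.05 in this design. In bulk tissue, fewer antigen-presenting cells and less class II RNA per cell cannot be told apart.

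**Figure D2:**
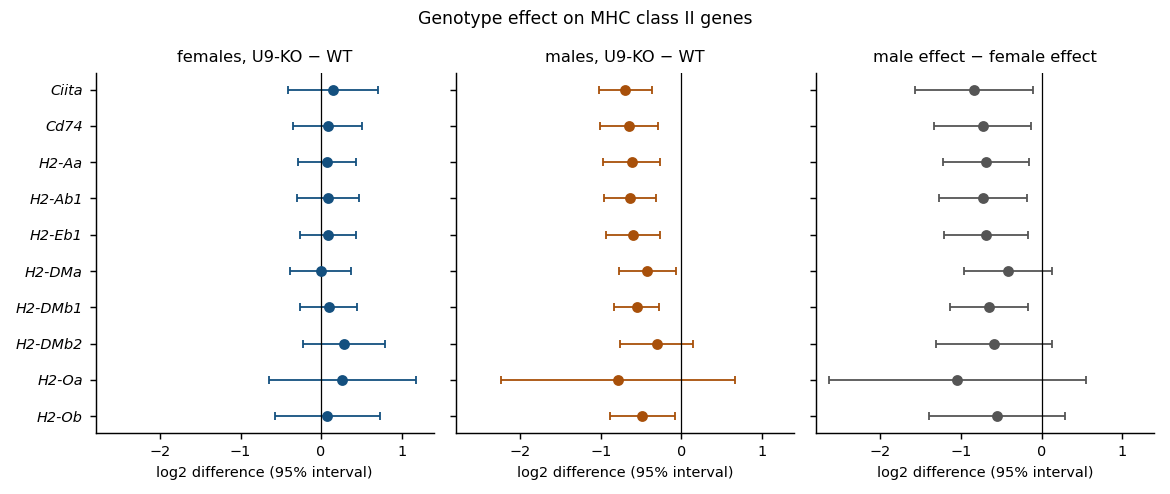
Log2 difference of U9-KO from WT in females (left) and in males (middle), and the male difference minus the female difference (right), for each of the 10 genes, from limma fits on log2(normalized count + 1) with bars for the 95% interval. The female intervals all include 0, the male intervals of 8 genes lie below 0 before adjustment, and no gene passed after adjustment over all genes.

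The genotype effect was then compared between the sexes by an interaction term over all 17 libraries. It was negative for all 10 genes, with a median of -0.69, and was -0.84 ± 0.35 for *Ciita* and -0.73 ± 0.29 for *Cd74*. None of the 10 passed, with an adjusted p of 1 for each by limma. At an unadjusted p under 0.05 there were 6 of the 10 genes, against 1.97% of all 26289 genes in that direction. Without U9-KO female 1 and WT female 4 the term was -0.48 for *Ciita* and -0.52 for *Cd74*. A difference between the sexes in the response to the deletion did not pass the threshold for any of the 10 genes.

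Markers of white blood cells moved with the class II genes in males. All 6 pan-leukocyte genes were lower in U9-KO males, with a median log2 difference of -0.48, and all 6 had an unadjusted p under 0.05. Of all genes tested in males, 4.09% were lower in U9-KO at this threshold. *Ptprc*, which encodes CD45 on all white blood cells, ran from 1143 to 1729 in WT males and from 919 to 1152 in U9-KO males, and *Laptm5*, a lysosomal protein of blood cells, from 3587 to 4740 and from 2405 to 3058. The summed pan-leukocyte counts were 8331 to 11451 in WT males and 5894 to 7642 in U9-KO males, without overlap. With the mean log2 level of these 6 genes as a covariate, an alternative added after the data were seen, the median over the class II genes went from -0.61 to -0.12. The difference was then -0.41 for *Ciita*, -0.24 for *H2-Ab1*, -0.10 for *Cd74* and 0.16 for *H2-DMa*, and 0 of the 10 passed. The covariate itself did not overlap between the genotypes, at 10.01 to 10.48 in WT males and 9.51 to 9.92 in U9-KO males. This fit therefore cannot tell the leukocyte level from genotype. Per *Ptprc* count, *H2-Ab1* had a ratio of 4.27 ± 0.60 (SD, n = 3) in WT males and 3.72 ± 0.55 (n = 4) in U9-KO males, and the ranges of 3.63 to 4.83 and 2.96 to 4.22 overlapped.

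The markers of the 3 professional antigen-presenting cell types were also lower in U9-KO males, and 0 of them passed the adjusted threshold. Of all genes tested, 4.09% were lower in U9-KO males at an unadjusted p under 0.05. For B cells all 12 markers were lower, with a median of -0.94 and 8 of 12 at an unadjusted p under 0.05. The B cell receptor subunit *Cd79a* ran from 106 to 208 in WT males and from 64 to 77 in U9-KO males. Summed, the B cell markers were 622 to 1386 in WT males and 464 to 591 in U9-KO males. The 1386 came from WT male 2, against 777 in WT male 1 and 622 in WT male 3. WT male 2 also had the highest pan-leukocyte sum, 11451. Its lymph node stroma markers, among them *Ccl21a* and *Cxcl13*, summed to 3721. That sum was 940 and 1235 in WT males 1 and 3 and 933 to 1612 in U9-KO males, and its source was not tested. For macrophages all 12 markers were lower, with a median of -0.36 and 5 at an unadjusted p under 0.05. *Csf1r*, the receptor for the macrophage growth factor, ran from 4012 to 6263 and from 2822 to 3926, and the summed macrophage markers overlapped slightly at 21055 to 32126 and 16946 to 21345. For dendritic cells all 9 markers were lower, with a median of -0.29 and 2 at an unadjusted p under 0.05. *Zbtb46*, a factor of conventional dendritic cells and the most abundant of the 9, was at -0.0065 ± 0.12. *Cd209a* ran from 156 to 304 in WT males and from 132 to 175 in U9-KO males, and *Itgax* from 144 to 435 and from 153 to 371. *Itgax* encodes CD11c, which the paper used to mark M1 macrophages, so this list is not limited to dendritic cells. T cells make little MHC class II in mice, and their markers were lower in 10 of 10 cases with a median of -0.79. Of these T cell markers, 2 had an unadjusted p under 0.05. Each marker of these lists was above 0 in at least 1 library. In the paper, histology of pWAT showed no group difference in the presence of lymphoid cells. Its flow cytometry of pWAT found no genotype difference in myeloid subsets, which were given as percentages of CD11b+ cells. The part of cell number in the class II difference was not tested here.

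In females the lists did not all lie on the same side. The median log2 difference of U9-KO from WT was 0.06 for the pan-leukocyte genes, with 3 of 6 higher, 0.12 for B cell markers, with 9 of 12 higher, and 0.11 for dendritic cell markers, with 6 of 9 higher. T cell markers were higher in 9 of 10 cases, with a median of 0.31, and macrophage markers were lower in 12 of 12 cases, with a median of -0.17. Plasma cell markers had the largest median, 1.54, and were higher in 5 of 5 cases. Of these, 4 had an unadjusted p under 0.05, against 2.23% of all genes in either direction. In males the plasma cell markers were lower in 5 of 5 cases, with a median of -0.66. None of these genes passed.

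Other genes of the pathway had smaller median differences in males, and whether these differ from the class II median was not tested. All 11 tested partners had lower means in U9-KO males, with a median of -0.39. Among them are the endosomal proteases and the ubiquitin ligases that remove class II from the surface. Of the 11, 3 had an unadjusted p under 0.05, against 4.09% of all genes in that direction. The protease *Ctss*, which trims the invariant chain, was at -0.50 ± 0.27, *Lgmn* at -0.39 ± 0.18, *Ctsl* at -0.10 ± 0.12 and the ligase *March8* at -0.06 ± 0.10. MHC class I genes, which nearly all cells express, were lower in 9 of 9 cases by a median of -0.14, with *H2-D1* at -0.18 ± 0.11 and *B2m* at -0.14 ± 0.10. The 7 DNA-binding factors of the class II promoter, which bind the X and Y boxes in most cells whether or not Ciita is present, had a median of 0.01 with 5 higher and 2 lower, with *Nfya* at 0.0027 ± 0.09. Genes induced by interferon gamma, the cytokine that switches on *Ciita* in many cells, were lower in 8 of 11 cases by a median of -0.09, with *Irf1* at -0.19 ± 0.12. None of these genes passed the threshold in either sex.

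The ratios of *Cd74* and the chains within a library lay in a narrow range. *H2-Aa* counts were 1.05 ± 0.049 times those of *H2-Ab1* (SD, n = 10 females) and 1.16 ± 0.068 times in males (n = 7). *H2-Eb1* counts were 0.925 ± 0.034 times those of *H2-Ab1* in females and 0.921 ± 0.031 in males, and *Cd74* counts 2.11 ± 0.080 and 2.35 ± 0.14 times. The coefficients of variation of these ratios were 3.35% to 6.11%, while the count of *H2-Ab1* itself varied by 14.1% in U9-KO females, 23.5% in WT females and 20.6% in U9-KO males. The 3 WT males were an exception, where *H2-Ab1* varied by 7.43%, the ratio of *Cd74* to it by 10.1% and that of *H2-Aa* by 8.31%.

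Other proportions were looser. *H2-DMb2* had 0.415 ± 0.087 times the counts of *H2-DMb1* in females and 0.326 ± 0.056 in males, with a coefficient of variation of 21.03% and 17.3%. *H2-Ob* had 0.0451 ± 0.011 times the counts of *H2-Ab1* in females and 0.0184 ± 0.0027 in males. The lowest female ratio, 0.0241 in U9-KO female 3, was just above the highest male ratio, 0.0230, so that the sexes did not overlap. U9-KO female 3 also had the fewest B cell marker counts of the females, 532, within the male range of 464 to 1386. A ratio within a library does not depend on the separate scaling of the sexes, but sex is tied to other differences between these libraries, such as the ovary markers, and the cause was not tested.

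**Figure D3:**
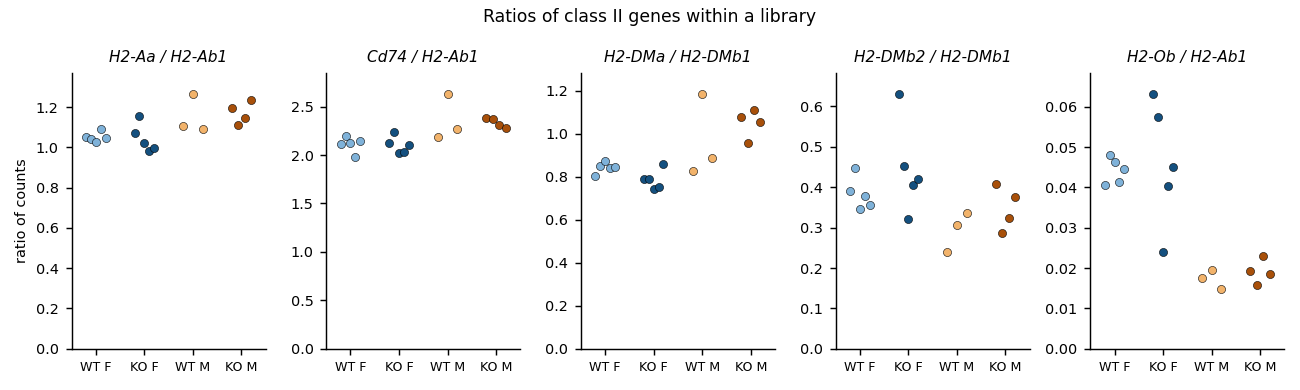
Ratio of normalized counts of 5 pairs of genes within each library (vertical axes from 0), with 1 point per library in WT females (WT F), U9-KO females (KO F), WT males (WT M) and U9-KO males (KO M). *H2-Aa* and *Cd74* relative to *H2-Ab1* vary little, while *H2-Ob* relative to *H2-Ab1* has a range of 0.0241 to 0.0633 in females against 0.0149 to 0.0230 for the male libraries.

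The question of how the class II genes follow their transactivator was addressed across libraries of each sex. In the 10 females each of the 9 other genes was higher where *Ciita* was higher. *H2-DMb2* had the highest Pearson's r, 0.92 (Spearman's rho = 0.84), followed by *H2-Ob* with r = 0.91 (rho = 0.86), by permutation tests with p = 0.00024 and 0.00017 for r and 0.00418 and 0.00236 for rho. For *H2-Aa* r was 0.84 (rho = 0.84, permutation p = 0.00269 and 0.00344), for *Cd74* 0.81 (rho = 0.82, permutation p = 0.00602 and 0.006) and for *H2-DMa*, the lowest, 0.66 (rho = 0.54, permutation p = 0.038 and 0.115). These are 9 correlations with raw p-values and 100000 resamples each, and the values adjusted over all genes are those of the slopes given further on.

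The 2 females farthest from the median *Ciita* level were U9-KO female 1 and WT female 4, the libraries with the most ovary markers. Without them r over 8 females was 0.82 for *H2-DMb2*, 0.87 for *H2-Ob*, 0.91 for *H2-Aa*, 0.91 for *Cd74* and 0.81 for *H2-DMa*, and 0.70 for *H2-DMb1*. For *H2-Oa* it was 0.56, against 0.77 with all 10 females. With the genotype means taken out, r over 10 females was 0.94 for *H2-DMb2*, 0.91 for *H2-Ob* and 0.80 for *Cd74*.

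In slopes, an increase of 1 log2 unit in *Ciita* went with a log2 increase of 1.04 ± 0.18 (SE) in *H2-Ob* and 0.86 ± 0.15 in *H2-DMb2*, against 0.59 ± 0.15 in *Cd74*, 0.52 ± 0.12 in *H2-Aa*, 0.52 ± 0.14 in *H2-Ab1*, 0.47 ± 0.13 in *H2-Eb1* and 0.40 ± 0.16 in *H2-DMb1*. Whether these slopes differ from each other was not tested. By limma none of the 9 slopes passed over 24824 genes, the lowest adjusted p being 0.276. At an unadjusted p under 0.05 all 9 slopes were positive, against 2.63% of all genes, and with genotype in the fit all 9 were, against 2.43%. Without the 2 ovary-rich libraries 7 of 9 were, against 3.67%. White blood cell markers followed *Ciita* as well: all 6 pan-leukocyte genes had positive slopes at an unadjusted p under 0.05, as did all 12 B cell markers, with medians of 0.59 and 1.38. With the B cell marker level in the same fit, all 9 class II slopes stayed positive and 2 of 9 had an unadjusted p under 0.05, against 1.26% of all genes.

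**Figure D4:**
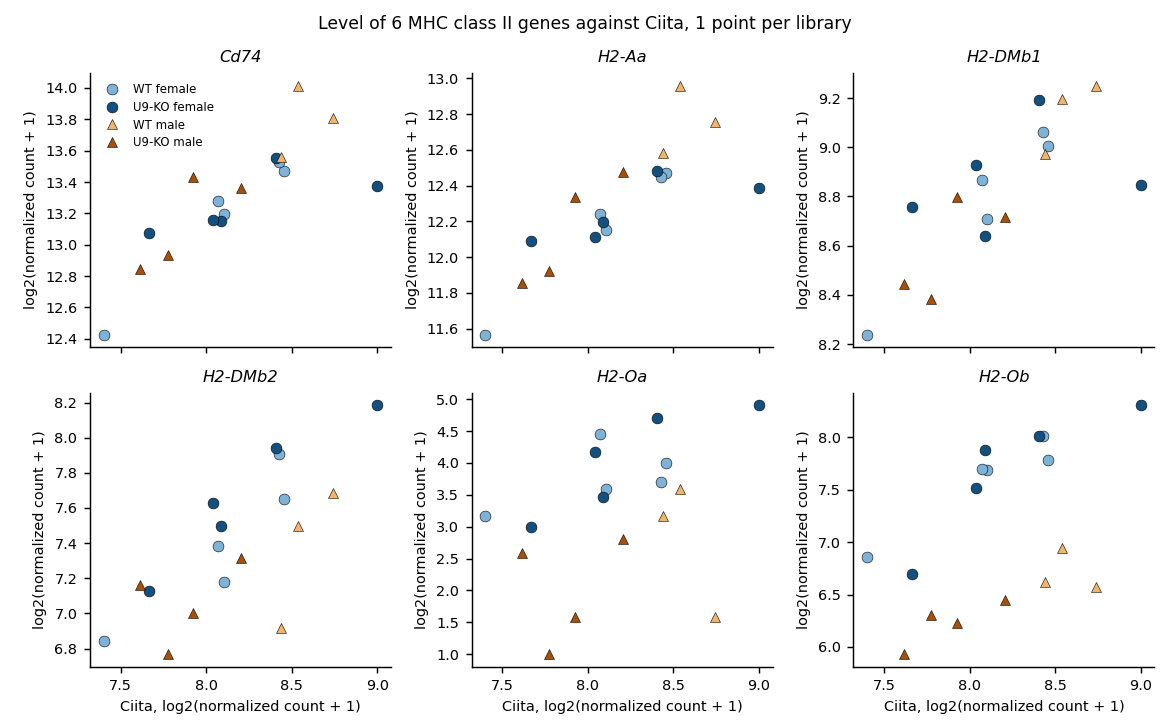
Log2(normalized count + 1) of *Cd74*, *H2-Aa*, *H2-DMb1*, *H2-DMb2*, *H2-Oa* and *H2-Ob* (vertical axes) against that of *Ciita* (horizontal axis), with 1 point per library, circles for females and triangles for males. In females the points rise together along *Ciita*, with U9-KO female 1 at the right (511 counts of *Ciita*) and WT female 4 at the left (168), and the male libraries split into WT at the right and U9-KO at the left.

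In males the WT and U9-KO libraries form separate groups on *Ciita*, at 346 to 427 and 195 to 294 counts, so no pooled correlation is given. Across both groups all 9 slopes on *Ciita* were positive and 8 had an unadjusted p under 0.05, against 3.84% of all genes. With genotype in the fit, the slope on *Ciita* was positive for 8 of the 9 genes and negative for *H2-Oa*. It had an unadjusted p under 0.05 for 4 of the 9, against 1.34% of all genes in the positive direction. With the B cell marker level in place of genotype, 5 of the 9 did, against 1.78%. None passed by limma in any of these fits, the lowest adjusted p across both groups being 0.349.

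The genes most like *Ciita* in females, among 14002 genes with a mean of at least 50, were *Tnfrsf13b*, a receptor on B cells (r = 0.97 over 10 libraries), the phospholipase *Plcg2* (0.96), the exchange factor *Prex1* (0.95), the phosphatase *Ptpn7* (0.94) and the kinase *Pik3cg* (0.94), all known from white blood cells. *H2-DMb2* ranked 12, *H2-Ob* 20 and *H2-Aa* 69 in that order, and *H2-DMa* 311. In the 7 males, where the order also follows the genotype groups, *Nthl1*, *Cmya5*, *Nckap5l*, *Tmem37* and *Cyp4f18* led, and *H2-Ab1* ranked 6, *H2-Eb1* 11 and *H2-DMb1* 12 among 13102 genes. *H2-DMa* ranked 466 in males, and *H2-DMb2*, the first of the class II genes in females, ranked 919.

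The class II genes were last set against the marker level of each antigen-presenting cell type, which is the mean of log2(normalized count + 1) over its markers, in each sex. *H2-Ob* was the only one of the 10 genes to pass for B cells in females. Its count was 219, 258, 205, 115 and 207 in WT females and 316, 234, 103, 182 and 258 in U9-KO females, and the summed B cell markers ran from 532 in U9-KO female 3, where *H2-Ob* was lowest, to 2457 in U9-KO female 1, where it was highest. The slope was 0.71 ± 0.09 (SE), adjusted p = 0.0167 by limma, and 0.0725% of 24825 genes had a positive slope that passed. With genotype in the fit the adjusted p was 0.0433. The call was lost when any of 4 libraries was left out, with an adjusted p of 0.0888 without U9-KO female 1, 0.0691 without U9-KO female 5, 0.0758 without WT female 2 and 0.0529 without WT female 4, and a slope of at least 0.66 in each. Without both ovary-rich libraries the slope was 0.65 ± 0.11 and the adjusted p 0.184.

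The remaining genes had shallower slopes on the B cell level in females, from 0.19 ± 0.11 for *H2-DMb1* to 0.60 ± 0.27 for *H2-Oa*, with 0.57 ± 0.11 for *Ciita* and 0.51 ± 0.12 for *H2-DMb2*. The 95% interval was 0.51 to 0.90 for *H2-Ob* and -0.05 to 0.44 for *H2-DMb1*, and their difference was not tested. Of the 10 genes 8 had a positive slope at an unadjusted p under 0.05, against 2.65% of all genes. Adding genotype to the fit left 6 of 10, against 2.47%. Without the 2 ovary-rich libraries 4 of 10 did, against 3.22%, and the slope of *Ciita* was 0.37 ± 0.10. In males 9 of 10 did across the separated genotype groups, against 5.61%, and 0 passed. Once genotype was added for the males, 0 of 10 had an unadjusted p under 0.05 by limma, against 3.23% of all genes, and 0 passed.

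For macrophage markers 2 of the class II genes passed in males. *Cd74* rose by 1.43 ± 0.27 log2 units per log2 unit of the macrophage level (adjusted p = 0.0481 by limma) and *H2-DMa* by 1.15 ± 0.21 (adjusted p = 0.041), 2 of the 10 genes against 0.438% of 21930 genes with a positive slope that passed. These fits cross the genotype groups. With genotype in the fit 0 of the 10 passed, and leaving out any male except WT male 1 also ended both calls. The *Cd74* call was lost as well with no filter, a pseudocount of 0.5 or TMM scaling, where *H2-DMa* stayed called. Its adjusted p was then 0.0515, 0.05001 and 0.0504 for *Cd74* by limma. At an unadjusted p under 0.05 the slope was positive for 8 of 10 genes, against 7.74% of all genes. This held for *Cd74* and *H2-DMa*, 2 of 10, when genotype was in the fit, against 5.9%. WT male 2, with the highest macrophage sum of 32126 and the highest *Cd74* and *H2-DMa* counts, moved the adjusted p most. Without it the slope was 2.50 ± 0.47 for *Cd74* (adjusted p = 0.751 by limma) and 1.11 ± 0.47 for *H2-DMa* (adjusted p = 0.944 by limma), both still positive. Without the other males whose removal ended the calls the adjusted p lay between 0.0619 and 0.0889. In females 0 of the 10 passed for macrophages, with 4 of 10 at an unadjusted p under 0.05 against 7.81% of all genes. These were *Cd74*, *H2-Ab1*, *H2-Eb1* and *H2-DMa*. There were 7 of 10 when genotype was in the fit, against 7.09%. Without the 2 ovary-rich libraries there were 2 of 10, against 11.6%, and these were *Ciita* and *H2-Ob*.

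For dendritic cell markers 0 of the 10 genes passed in either sex. All 10 slopes in females had an unadjusted p under 0.05, against 3.07% of all genes, and ranged from 0.91 ± 0.28 for *H2-DMb1* to 2.10 ± 0.35 for *H2-Ob*, with adjusted p from 0.176 to 0.972 by limma. All 10 also had when genotype was in the fit, against 3.13%. Without the 2 ovary-rich libraries 8 of 10 had, against 3.64%, and the slope of *Cd74* was 0.75 ± 0.28 instead of 1.20 ± 0.31. In males 8 of 10 had an unadjusted p under 0.05 across the genotype groups, against 2.44%. When genotype was in the fit, *H2-DMb2* alone had, 1 of 10 against 1.28%. The slopes on the 3 cell types are not independent of each other, since the marker levels come from the same libraries and share their depth. The dendritic cell level also includes *Itgax*, whose product the paper used to mark M1 macrophages.

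**Figure D5:**
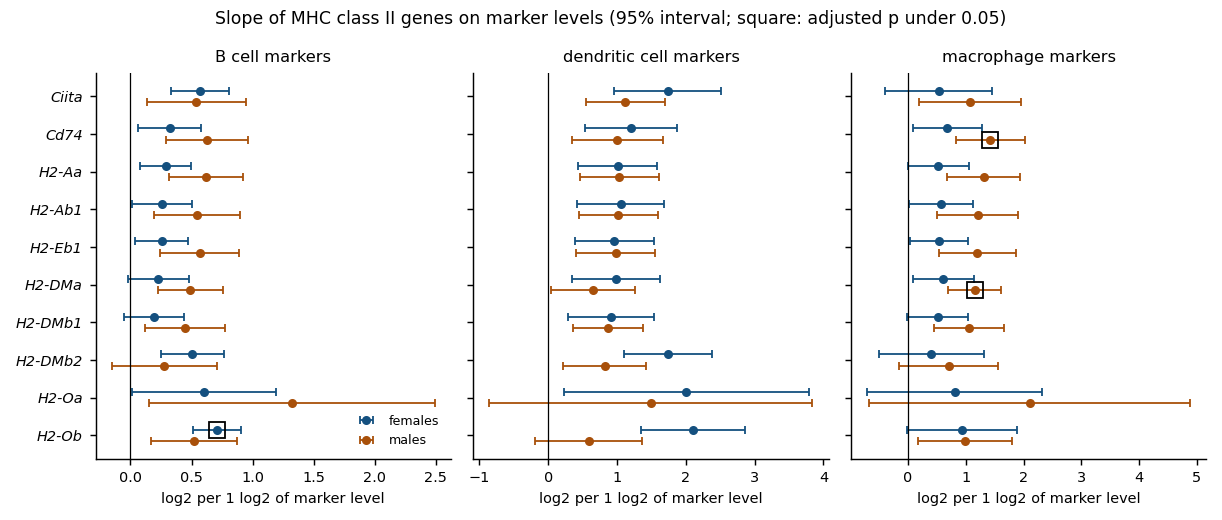
Slope of each of the 10 genes on the level of B cell, dendritic cell and macrophage markers, in log2 units per log2 unit of the mean marker level, with 95% intervals from limma for females and males. All slopes are above 0, and squares mark the 3 that passed the adjusted threshold, *H2-Ob* on B cell markers in females and *Cd74* and *H2-DMa* on macrophage markers in males.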

How the data were processed

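RNA of whole pWAT from 17 mice was sequenced as paired stranded libraries. The authors checked and trimmed the reads, aligned them with STAR (2.7.3a, per the submitters' processing notes, with GRCm38), counted them with summarizeOverlaps in Union mode and normalized them with DESeq2 (1.28.1). What the authors deposited is best treated as a score, since each value is a read count that was scaled by a size factor and rounded. The approximate reads per library were estimated here from whole numbers that are missing or doubled. The table of all libraries repeats the single ones and was not used. For 2 males the replicate number in the column name differs from that in the label, and the label was followed. Names came from GENCODE M21, which named 55141 of 55401 identifiers. Raw counts were not analysed here, so limma 3.58.1 (R 4.3.3, trended empirical Bayes) was fitted to log2(normalized count + 1) in place of a count model, within each sex, for genes with a total of at least 10, with Benjamini-Hochberg adjustment over all genes. All 10 class II genes passed this filter in both sexes. Slopes and the interaction used the same fit. Correlations were computed in Python 3.11.15 with numpy 2.4.6. Exact permutation tests (scipy 1.17.1) were two-sided. The fits were also run on simulated data with independent genes and the same dispersion for all genes. That setting is simpler than these libraries, so it does not show how many real changes the fits would find here. The class II genes and the marker lists were chosen with earlier results of these data known. Named genes were the 10 members, *U90926*, up to 4 of the most abundant genes of a list, and the 5 genes most like *Ciita* in each sex. Tried as alternatives were no filter, a minimum of 10 in every library, a pseudocount of 0.5, TMM scaling, no trend, robust fits, the replicate block, 1 fit of all libraries, other covariates, the longest transcript and leaving out libraries. Added after the data were seen were voom on approximate reads, the pan-leukocyte covariate and females without 2 libraries. The p-values of the genotype and interaction fits measure the spread between mice of a group. Those of the slopes and correlations use all mice of a sex, across both genotypes unless genotype was in the fit.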

Additional observations from a re-analysis of the deposited data

Results flagged for a closer look

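Groups of 4 or more mice were searched for a library far from the others, which covered 30 sets of values, 10 genes in each of 3 groups. Chance gives such a library in about 1 in 20 sets, or 1.5 of 30, and 2 were found. The 10 genes come from the same mice and move together, so the sets are not independent and the 1.5 is only a rough guide. *H2-Eb1* was 2682 in WT female 4 and between 4205 and 4825 in the other WT females, and that mouse was also the lowest WT female for the other 9 genes. *H2-DMa* was 501 in U9-KO female 5 and between 315 and 365 in the other U9-KO females.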

How the results depend on the processing

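None of the 10 genes was called between U9-KO and WT under any alternative that was run. The male median ran from -0.71 to -0.51 when 1 male was left out. With the pan-leukocyte level as a covariate it was -0.12, and *H2-DMa* turned to 0.16, *H2-DMb2* to 0.23 and *H2-Oa* to 0.35. That level did not overlap between the male genotypes, so this fit cannot tell it from genotype. The female directions were unstable. The female median ran from -0.068 (without WT female 4) to 0.17 when 1 female was left out, and the ranges were -0.042 to 0.29 for *Ciita*, -0.11 to 0.17 for *Cd74*, -0.076 to 0.15 for *H2-Aa*, -0.078 to 0.16 for *H2-Ab1*, -0.060 to 0.15 for *H2-Eb1*, -0.14 to 0.070 for *H2-DMa*, -0.038 to 0.17 for *H2-DMb1* and -0.11 to 0.32 for *H2-Ob*. WT female 4 turned 7 genes, U9-KO female 1 turned *Ciita* and *H2-Ob*, U9-KO female 5 turned *H2-Ob*, and U9-KO females 2 and 3 and WT females 1, 2 and 5 turned *H2-DMa*. Without both ovary-rich females the values were -0.21 for *Ciita*, -0.13 for *Cd74*, -0.11 for *H2-Aa*, -0.10 for *H2-Ab1*, -0.078 for *H2-Eb1*, -0.031 for *H2-DMb1*, -0.10 for *H2-Oa* and -0.27 for *H2-Ob*. With the pan-leukocyte covariate they were -0.044 for *Ciita*, -0.061 for *Cd74*, -0.043 for *H2-Aa*, -0.040 for *H2-Ab1*, -0.025 for *H2-Eb1*, -0.0074 for *H2-DMb1* and -0.13 for *H2-Ob*, and voom gave 0.0033 for *H2-DMa*.

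For the slope on B cell markers, 0 to 1 genes were called when 1 female was left out, and 0 without both ovary-rich females. In males 0 to 1 were called when 1 was left out, *H2-DMa* passing without WT male 1 (slope 0.56, adjusted p = 0.0415 by limma). For macrophage markers in males the count was 1 with no filter, 1 with a pseudocount of 0.5 and 1 with TMM scaling. In these fits *H2-DMa* was called and *Cd74* was not. The count was 0 with genotype as a covariate. It was 0 to 3 when 1 male was left out, 3 being without WT male 1, where *H2-Aa* was added. The causes were not tested.

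With the replicate number as a block, 0 genes were called in both sexes and for the interaction. The median was 0.09 in females and -0.71 in males, and the interaction was -0.95 for *Ciita*. For each gene the mean of its group was subtracted, and the remaining deviations were correlated between WT and U9-KO libraries. For same-numbered libraries these correlations lay between -0.44 and 0.11 in females and between -0.12 and -0.01 in males. By these deviations no WT library correlated best with the U9-KO library of its own number. This gave no sign of pairing by number, but so few mice cannot exclude it.

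Depth limited *H2-Oa* most, at 1 to 29 counts, and a minimum of 10 in every library left it without a value. With 3 WT males, single genes could not reach an exact p below 0.0571.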
